A study of Mus musculus with 6 samples.

Results

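A set of 10 genes of meiosis and the germ line, of 54532 gene IDs in the table, was followed in mouse heart ventricles at embryonic day E12.5. They are Meioc, Ythdc2, Dmc1, Stag3, Rec8, Smc1b, Sycp1, Sycp3, Hormad1 and Mael, taken by symbol and matched to Ensembl IDs with the GENCODE M21 annotation. The study set 3 libraries with a conditional knockout of LSD1 (gene Kdm1a, a histone demethylase that works within repressor complexes) against 3 control libraries, all of total RNA. The sources used here do not give the driver of the deletion, the cells it reached, the alleles of the controls, or whether a library came from 1 embryo or a pool, so p-values measure the spread between these libraries, which may be technical. The genes were chosen by function with their FPKM in knockout and control libraries already known. The values of the 10 genes in this contrast are therefore given as a description, without a p-value.

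Meiosis is the division by which germ cells make eggs and sperm. Many of its genes, though not all, are normally silent in somatic tissue such as heart muscle, where repressor complexes and DNA methylation help keep them off. MEIOC binds the RNA helicase YTHDC2, and with the RNA-binding protein RBM46 this complex holds mouse germ cells in the meiotic programme by lowering transcripts of the mitotic cycle. DMC1 pairs broken DNA with the homologous chromosome. REC8, STAG3 and SMC1B are meiotic versions of cohesin subunits, the ring that holds sister chromatids together. SYCP1, SYCP3 and HORMAD1 build the chromosome axis and the synaptonemal complex, and MAEL acts in the piRNA pathway that silences transposons.

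Promoter windows of RefSeq (GRCm38.p6, 250 bases before and 50 after a start site) were found for 9 of the 10 genes, all but Ythdc2. They were searched on both strands for CACGTG, the E-box that MGA and MAX bind, and for GCGGGA, an E2F-like motif, since MGA, MAX and E2F6 belong to a repressor complex of germline genes. The bases before the start site are shown for a pair of genes that were higher in the knockout, Meioc (chr11:102665335-102665584, plus strand) and Dmc1 (chr15:79605110-79605359, minus strand), and for a pair with almost no reads, Sycp1 (chr3:102936101-102936350, minus strand) and Hormad1 (chr3:95559427-95559676, plus strand). The Meioc window belongs to a RefSeq start site 1869 bases past the GENCODE gene start. Each sequence runs 5′ to 3′ on the strand of its gene, and capitals mark a motif in either orientation.
Meioc: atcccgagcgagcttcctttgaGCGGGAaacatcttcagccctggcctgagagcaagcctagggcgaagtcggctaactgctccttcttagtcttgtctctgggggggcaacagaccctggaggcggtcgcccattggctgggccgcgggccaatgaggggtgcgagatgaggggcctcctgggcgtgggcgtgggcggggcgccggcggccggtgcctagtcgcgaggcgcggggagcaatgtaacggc
Dmc1: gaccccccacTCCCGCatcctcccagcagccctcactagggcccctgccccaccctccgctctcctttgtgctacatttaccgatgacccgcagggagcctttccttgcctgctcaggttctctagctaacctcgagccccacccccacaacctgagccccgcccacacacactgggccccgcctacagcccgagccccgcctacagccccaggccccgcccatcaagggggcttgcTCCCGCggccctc
Sycp1: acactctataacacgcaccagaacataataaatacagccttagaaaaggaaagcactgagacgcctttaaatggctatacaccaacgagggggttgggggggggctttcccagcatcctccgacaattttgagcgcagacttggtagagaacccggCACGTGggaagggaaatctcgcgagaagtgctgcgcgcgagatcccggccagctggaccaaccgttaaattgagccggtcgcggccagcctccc
Hormad1: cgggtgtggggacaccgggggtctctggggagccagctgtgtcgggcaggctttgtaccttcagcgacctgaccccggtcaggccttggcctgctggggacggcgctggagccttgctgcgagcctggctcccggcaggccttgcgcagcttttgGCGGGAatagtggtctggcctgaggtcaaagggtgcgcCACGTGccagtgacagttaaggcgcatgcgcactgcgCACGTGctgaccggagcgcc
All 9 windows held GCGGGA or its reverse complement, against 20% of all 32851 RefSeq windows, and 40.1% of the 7909 windows with a CpG count as in these genes (15 to 30). In the printed bases Dmc1 has the motif at both ends, Meioc near the far end and Hormad1 once, while in Sycp1 the match lies past the start site. CACGTG was in 5 of the 9 windows (Stag3, Sycp1, Sycp3, Hormad1 and Mael) and not in those of Meioc, Dmc1, Rec8 and Smc1b. Of the germline genes described further on, Rbm46, which rose in the knockout, held it in its 1 window and Boll in 1 of its 2. Both are named for their change in these data, and a link between the motif and the change was not tested. CACGTG was in 7.15% of all windows and in 11.2% of those with a like CpG count. The 9 windows had a median of 24 CpG, against 7 over all windows. The motifs do not overlap each other in the printed bases, and a match says only that the letters are there.

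The deposited values are FPKM, fragments per kilobase of gene and scaled by a library total. Whole reads could be recovered from their steps, and a level of 3 reads is used as the floor below which a gene is not read as expressed. The libraries held between 17898946 and 20076028 recovered reads. Kdm1a, the targeted gene, averaged 11.1 ± 0.555 FPKM in knockout and 27.5 ± 4.08 FPKM in control ventricles (SD, n = 3 each). Its fall passed the limma test (log2 change -1.22, SE 0.11, adjusted p = 0.00274), and a two-sided exact permutation test gave 0.1, the smallest p that 3 against 3 libraries allow. Knockout replicate 3 stood apart by sex-linked RNA, with 3873 reads of Xist and 0 of each of 4 Y-linked genes (Uty, Kdm5d, Eif2s3y and Ddx3y). Knockout replicate 1 had 529 to 1347 reads of these and also 360 reads of Xist, against at most 4 Xist reads in knockout replicate 2 and the controls. It also had the highest sum of 7 neural crest and glia markers, 14.5 FPKM, against 3.21 and 3.23 FPKM in the other knockout libraries and 3.33 to 4.08 FPKM in the controls; none of the 7 was called, and the smallest p was that of Erbb3 (limma adjusted p = 0.526). Heart muscle markers were abundant throughout: 8 of them summed to 13254 to 14687 FPKM in knockout and 11884 to 15778 FPKM in control libraries, with 0 calls and the smallest p in Tnnt2 and Myh6 (limma adjusted p = 0.582 and 0.648).

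The 10 genes split into a few with clear expression and several near zero. Meioc, Ythdc2, Dmc1, Stag3, Rec8 and Sycp3 had at least 3 reads in each of the 6 libraries. Mael was under that floor in 1 library, Smc1b in 3, Sycp1 in 5 and Hormad1 in all 6. Only 4 genes (Meioc, Ythdc2, Dmc1 and Rec8) averaged 0.5 FPKM or more across the 6 libraries and entered the limma fit of 14149 genes. Of these 4, 2 were called higher (Meioc and Dmc1) and 0 lower at an adjusted p under 0.05, where 1.91% of all tested genes were called higher and 0.466% lower (2.37% in all). Nothing is read from that count, because the genes were chosen with this contrast known. In 3 of the 10 genes (Meioc, Dmc1 and Rec8) all knockout libraries lay above all control libraries, and in 1 (Stag3) all lay below. Among the tested genes 11% showed the first order and 10.4% the second, 21.4% in all. Among the 25956 genes with a read in any library, Stag3 included, these shares were 8.51% and 7.05%.

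**Figure D1:**
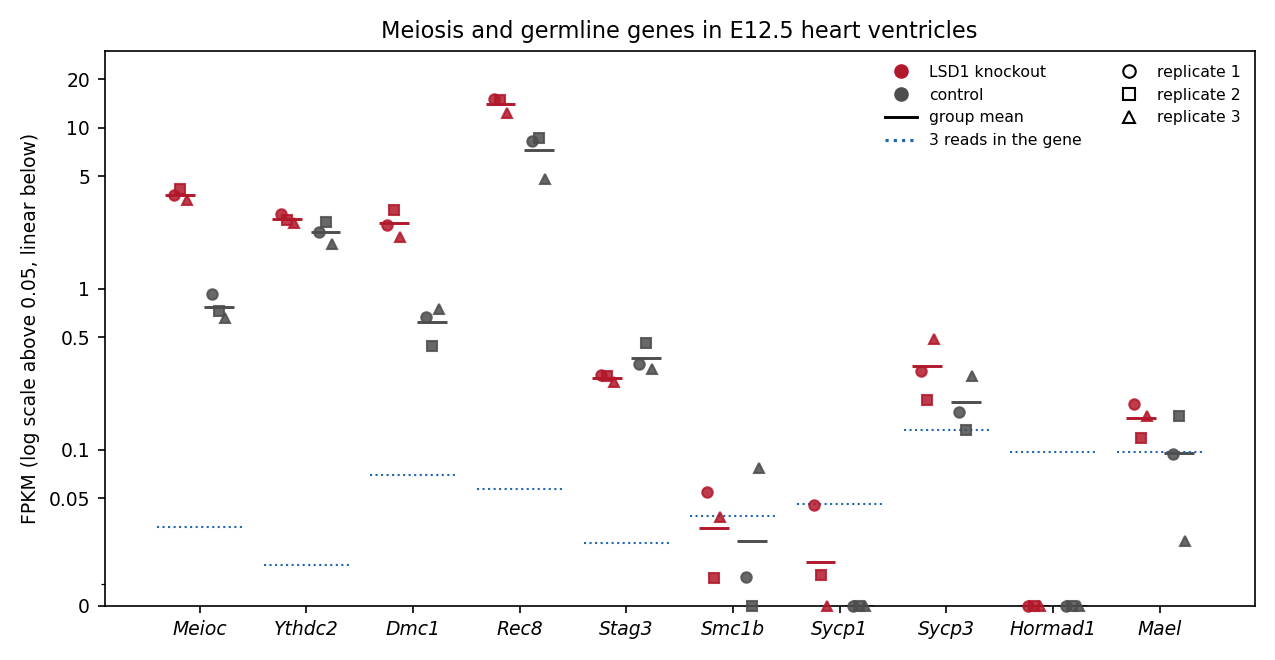
FPKM of each gene (vertical axis, logarithmic above 0.05 and linear below) in the 3 knockout (red, left) and 3 control libraries (grey, right), with marker shapes for replicates, short lines for group means and a dotted line at the highest FPKM that 3 reads give in that gene. Meioc, Dmc1 and Rec8 are separated upward, Stag3 is separated downward, Smc1b lies around the dotted line, Sycp1 at or below it and Hormad1 at 0.

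Meioc had the largest ratio of the genes with reads in both groups. It stood at 3.82, 4.16 and 3.54 FPKM in knockout replicates 1 to 3, against 0.927, 0.730 and 0.662 FPKM in control replicates 1 to 3. The reads behind these values numbered 319, 373 and 292 in knockout and 79, 60 and 59 in control libraries. The lowest knockout value was thus well above the highest control value, and the groups did not overlap. The means were 3.84 ± 0.311 FPKM in knockout and 0.773 ± 0.138 FPKM in control ventricles (SD, n = 3 each), which gives a ratio of 4.97. On the log2(FPKM + 1) scale, which understates changes of low genes, the difference was 1.45 (SE 0.10). Its position in GRCm38 (mm10) is chromosome 11, 102663716 to 102682237, plus strand, and no exon of another gene overlaps its exons. In bulk tissue, more cells with a transcript and more transcript per cell cannot be told apart, here and for each gene below.

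Ythdc2, which encodes the partner of MEIOC, had reads in every library, and its groups lay close together. It had 2.91, 2.67 and 2.55 FPKM in knockout libraries, against 2.25, 2.61 and 1.89 FPKM in control libraries. Knockout replicate 3 lay below control replicate 2, so the groups overlapped. The means were 2.71 ± 0.182 FPKM in knockout and 2.25 ± 0.359 FPKM in control ventricles (SD, n = 3 each). Their ratio was 1.21, with a log2 difference of 0.20 (SE 0.10). Within each library Meioc was at 1.31, 1.56 and 1.39 times the Ythdc2 level in knockout ventricles, and at 0.413, 0.280 and 0.350 times in control ventricles. Meioc was therefore above Ythdc2 in each knockout library and below it in each control library.

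Dmc1 was the other low gene with a ratio above 4. Its values were 2.50, 3.07 and 2.09 FPKM (110, 145 and 91 reads) in knockout libraries, against 0.668, 0.439 and 0.745 FPKM (30, 19 and 35 reads) in control libraries. No control library came near the lowest knockout library. The means were 2.55 ± 0.490 FPKM in knockout and 0.617 ± 0.159 FPKM in control ventricles (SD, n = 3 each). Their ratio was 4.14, with a log2 difference of 1.13 (SE 0.13). Dmc1 spans 79561497 to 79605109 of chromosome 15 (minus strand), free of exons of other genes.

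Rec8, the meiotic counterpart of the cohesin subunit RAD21, had the highest level of the 10 genes in both groups. It had 14.99, 14.94 and 12.38 FPKM in knockout libraries, against 8.29, 8.58 and 4.77 FPKM in control libraries. Control replicate 3 was the lowest library by a wide margin, and all knockout libraries were above all controls. The means were 14.1 ± 1.49 FPKM in knockout and 7.21 ± 2.12 FPKM in control ventricles (SD, n = 3 each). Their ratio was 1.96, with a log2 difference of 0.91 (SE 0.19). Rec8 was not called in the limma fit of all 6 libraries and was called in 4 of 14 alternatives. Nothing is read from these calls, because the gene was chosen with this contrast known. Without control replicate 3 its log2 difference was 0.67. Rad21 itself was at 87.0 ± 4.71 FPKM in knockout and 96.0 ± 11.8 FPKM in control ventricles (SD, n = 3 each; limma adjusted p = 0.556), so Rec8 amounted to 0.162 ± 0.0104 of it in knockout and 0.0740 ± 0.0141 in control libraries. Rec8 spans 55618037 to 55625395 of chromosome 14 (plus strand).

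**Figure D2:**
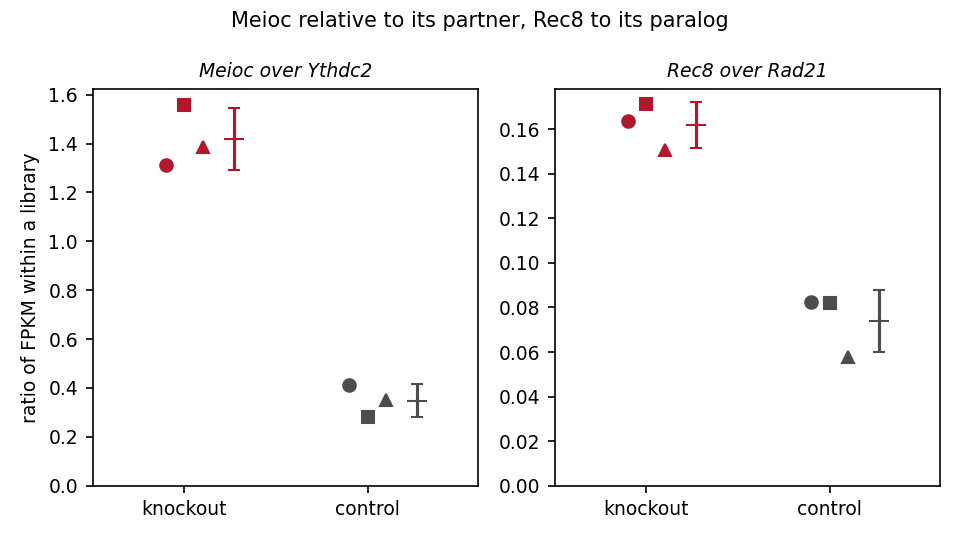
Ratio of FPKM within each library (vertical axes, from 0) for Meioc over its partner gene Ythdc2 and Rec8 over Rad21, in knockout (red) and control (grey) libraries; circles, squares and triangles are replicates 1, 2 and 3, and bars give the mean ± SD of 3 libraries. In both panels the knockout libraries lie above the control libraries, with Meioc over Ythdc2 at 1.31 to 1.56 in knockout and 0.280 to 0.413 in control.

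The other meiotic cohesin genes had far fewer reads. Stag3, the counterpart of Stag1 and Stag2, was lower in the knockout, at 0.290, 0.288 and 0.264 FPKM against 0.340, 0.461 and 0.316 FPKM in controls. These values rest on 27 to 32 reads in each knockout library and 35 to 47 in each control library. The groups did not overlap, and the ratio of means was 0.753. Stag3 was under the level tested, and 7.05% of genes with a read had all knockout libraries below all controls. Smc1b, the counterpart of Smc1a, had 4, 1 and 3 reads in knockout libraries and 1, 0 and 6 reads in control libraries. Of the 6 libraries 3 fell under 3 reads, which in this gene are worth 0.0382 to 0.0417 FPKM, and no difference was detectable at this depth.

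Sycp1, Hormad1, Sycp3 and Mael had at most 11 reads in any library. Sycp1, which encodes the transverse filament, had 3, 1 and 0 reads in knockout libraries and 0 reads in each control library, where 3 reads would be 0.0437 to 0.0474 FPKM. Hormad1 had 0 reads in all 6 libraries, which allows a level of up to 0.0894 to 0.0972 FPKM in knockout and 0.0899 to 0.0975 FPKM in control libraries. Sycp3, an axis component, had 7, 5 and 11 reads in knockout and 4, 3 and 7 reads in control libraries, and the groups overlapped, at 0.204 to 0.487 FPKM in knockout and 0.133 to 0.287 FPKM in control libraries. Of its exon bases 52.2% lie under exons of Chpt1 on the opposite strand, and the library kit does not mark strand. Chpt1 was at 5.94 ± 0.215 FPKM in knockout and 4.54 ± 0.206 FPKM in control ventricles (SD, n = 3 each; limma adjusted p = 0.0581), and its part in the Sycp3 reads was not tested. Mael had 6, 4 and 5 reads in knockout and 3, 5 and 1 reads in control libraries, between 0.0299 and 0.192 FPKM in all, with overlapping groups.

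The order of levels differed between the groups at the top. In knockout ventricles it ran Rec8, Meioc, Ythdc2, Dmc1, Sycp3, Stag3, Mael, Smc1b, Sycp1 and Hormad1. The libraries overlapped between Ythdc2 and Dmc1, between Sycp3 and Stag3, between Smc1b and Sycp1 and between Sycp1 and Hormad1, and neighbours were apart elsewhere. In control ventricles the order was Rec8, Ythdc2, Meioc, Dmc1, Stag3, Sycp3, Mael and Smc1b, with Sycp1 and Hormad1 at 0. There the libraries were apart between Rec8 and Ythdc2, between Ythdc2 and Meioc and between Stag3 and Sycp3, and overlapped elsewhere. Among the 25956 genes with a read in any library, the mean level of Meioc stood at the 67.5th percentile in knockout and the 49.7th in control ventricles. That of Dmc1 stood at the 62.0th percentile in knockout and the 47.8th in control ventricles.

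Groups that do not overlap stay apart when 1 library is left out, so for Meioc and Dmc1 only the size of the ratio is read here. Leaving out each library in turn gave ratios of 4.64 to 5.52 for Meioc and 3.62 to 4.62 for Dmc1. Without knockout replicate 1, which had the highest neural crest marker sum, the ratios were 4.98 for Meioc, 4.18 for Dmc1 and 1.89 for Rec8. Without knockout replicate 3, the library with no Y-linked reads, they were 5.16, 4.51 and 2.08 for the same genes. Rec8 ranged from 1.67 to 2.16, Ythdc2 from 1.12 to 1.31 and Stag3 from 0.700 to 0.854. Ratios of the genes with few reads moved much more: Smc1b ranged from 0.805 without control replicate 2 to 5.42 without control replicate 3, and Mael from 1.23 without control replicate 3 to 2.54 without control replicate 2.

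**Figure D3:**
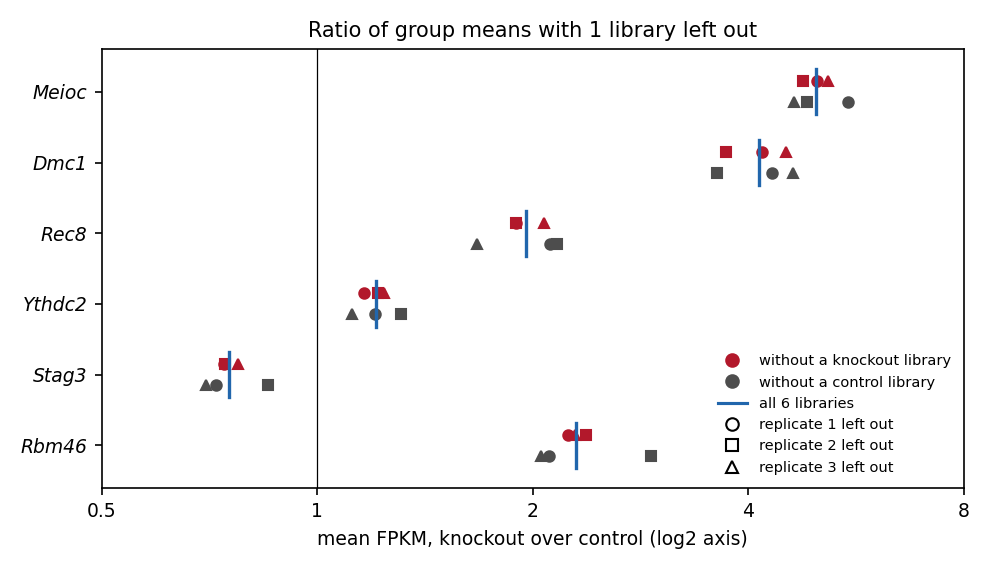
Ratio of mean FPKM, knockout over control (horizontal axis, logarithmic), with 1 library left out, for 5 of the 10 genes and for Rbm46; red and grey markers leave out a knockout or a control library, shapes give its replicate number, and blue lines show all 6 libraries. Meioc lies between 4.64 and 5.52, and Stag3 lies between 0.700 and 0.854.

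Nearby genes were looked at after these values were seen. The protein-coding genes on either side of Meioc, Fzd2 and Ccdc43, had ratios of 0.907 and 0.962 (limma adjusted p = 0.489 and 0.749). Ddx17, before Dmc1, had a ratio of 0.979 (limma adjusted p = 0.891), and Fam227a, after it, was under the level tested. Beside Rec8, Irf9, which encodes a transcription factor of the interferon response, rose. It averaged 4.52 ± 0.694 FPKM in knockout and 2.09 ± 0.228 FPKM in control ventricles (SD, n = 3 each). The ratio was 2.17 (log2 change 0.83, SE 0.11; limma adjusted p = 0.0114). Its call was lost without knockout replicate 3 (limma adjusted p = 0.0545) and without the filter on low values (0.0558). Ipo4, whose annotated end lies 5 bases beyond that of Rec8, had a ratio of 0.985 (limma adjusted p = 0.921).

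Further genes of the germ line were read from 6 lists that hold none of the 10 genes. Of 97 listed genes 96 were matched, 14 of these had 0 reads in all libraries and 24 reached the mean of 0.5 FPKM. One rose, Rbm46, and 0 fell, against 1.91% and 0.466% of all tested genes. Without the filter on low values 1 list gene rose, and it was Boll, where 0.424% of 25956 genes were called higher and 0.0462% lower. At an unadjusted p under 0.05 the counts were 5 higher and 1 lower of 24, where 8.67% and 7.4% of all tested genes had such a p. The median log2 change of the 24 genes was 0.03, beside -0.01 over all 14149 genes. These lists were also chosen with earlier results of these data known, so nothing is read from the counts.

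Rbm46 encodes the RNA-binding protein that joins MEIOC and YTHDC2. It had 1.99, 1.77 and 1.90 FPKM in knockout libraries, against 0.672, 1.17 and 0.622 FPKM in control libraries, and the groups did not overlap. The means were 1.89 ± 0.110 FPKM in knockout and 0.821 ± 0.303 FPKM in control ventricles (SD, n = 3 each). The ratio was 2.30 (log2 change 0.68, SE 0.13; limma adjusted p = 0.0416). The call was close to the threshold. Leaving out each library in turn kept it once, without control replicate 2 (limma adjusted p = 0.0242), and lost it the other 5 times (0.0729 to 0.135). It was the single gene of the 10 on meiotic entry and telomere attachment to reach the level tested. Stra8, Terb2, Majin and Meikin of that list had 0 reads in all libraries, and Dazl, a germ cell RNA-binding protein gene, had 3 to 10 reads in knockout and 7 to 8 in control libraries.

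Listed genes of the axis, of recombination and of germ granules gave 0 calls. Six6os1 (4930447C04Rik in the annotation), a central element gene of the synaptonemal complex, was at 0.981 ± 0.176 FPKM in knockout and 0.435 ± 0.0628 FPKM in control ventricles, and Syce2, another, at 14.9 ± 1.57 FPKM in knockout and 11.2 ± 1.64 FPKM in control ventricles (SD, n = 3 each; limma adjusted p = 0.0876 and 0.159). These were the 2 of 9 axis genes tested. Of 9 recombination genes tested, Mnd1, whose product assists DMC1, was at 12.01 ± 0.440 FPKM in knockout and 10.03 ± 0.952 FPKM in control ventricles, and Iho1, a gene of double-strand break formation, at 0.607 ± 0.0165 FPKM in knockout and 0.476 ± 0.135 FPKM in control ventricles (SD, n = 3 each; limma adjusted p = 0.194 and 0.623). Of 9 tested genes of the piRNA pathway and germ granules, Rnf17, a tudor domain gene, was at 1.56 ± 0.194 FPKM in knockout and 0.761 ± 0.184 FPKM in control ventricles and Pld6, a piRNA processing gene, at 0.922 ± 0.391 FPKM in knockout and 1.53 ± 0.223 FPKM in control ventricles (SD, n = 3 each; limma adjusted p = 0.0616 and 0.27). The m6A list was tested in full; it holds writers and readers of the RNA mark that YTHDC2 can bind, and Xrn1, which encodes an exoribonuclease that binds YTHDC2. Its 11 genes had log2 changes of -0.10 to 0.07 with 0 calls, led by Ythdf2 and Ythdf1 (limma adjusted p = 0.515 and 0.723).

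**Figure D4:**
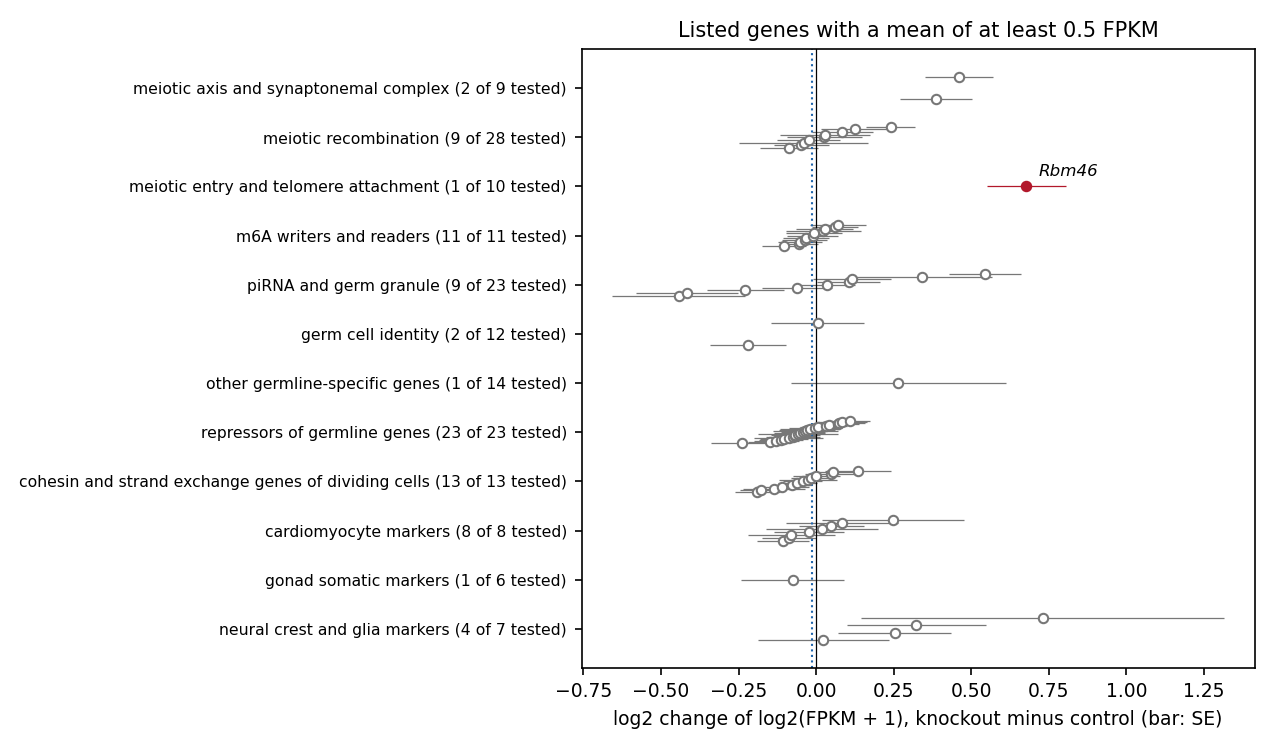
Difference in mean log2(FPKM + 1), knockout minus control (horizontal axis), for each tested gene of 12 lists (rows, with the number tested of those matched), with bars for the SE; filled red marks an adjusted p under 0.05 and the dotted line is the median of all tested genes. Rbm46 at 0.68 is the only filled point, and the m6A genes lie between -0.10 and 0.07.

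Markers of germ cells and gonad were scarce in both groups. Of 12 germ cell identity genes, Nanos2, Prdm14 and Sohlh1 had 0 reads in all libraries, and Pou5f1, Dppa3 and Tfap2c had at most 2 in any. Nanog had 11 to 21 reads in each library and Prdm1 13 to 24. Sohlh2 had 16 reads over the knockout and 7 over the control libraries, with overlapping groups. Dmrt1 had 5, 4 and 11 reads in knockout and 3, 2 and 3 reads in control libraries. It was the 1 gene of the list with all knockout libraries above all controls, and 0 had them below. Among all genes with a read these shares were 8.51% and 7.05%. The list summed to 2.53 to 3.38 FPKM in knockout and 2.76 to 3.42 FPKM in control libraries, and its 2 tested genes, Nanos3 and Dnd1, were not called (limma adjusted p = 0.426 and 0.991). The 6 gonad somatic markers summed to 1.01 to 1.61 FPKM in knockout and 0.544 to 1.90 FPKM in control libraries, and their 1 tested gene, Cyp17a1, was not called (limma adjusted p = 0.869). Ddx4 and Slc25a31, germline genes of the lists, were highest in knockout replicate 1, as were the neural crest markers, whose part in this was not tested; Ddx4 was chosen after its values were seen. Ddx4 had 2.13, 1.28 and 0.557 FPKM in knockout and 0.727 to 0.791 FPKM in control libraries, and Slc25a31 had 4.005, 0.993 and 0.947 FPKM in knockout and 0.942 to 1.63 FPKM in control libraries (limma adjusted p = 0.51 and 0.76). Without that library the ratio of means was 1.20 for Ddx4 and 0.774 for Slc25a31, against 1.73 and 1.58 with it.

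Genes that keep germline genes silent, and the cohesin genes of dividing cells, were expressed in both groups and gave 0 calls. The 23 listed repressors, among them E2f6, Pcgf6, Mga, Setdb1 and Dnmt1, were all tested, with 0 calls and a median log2 change of -0.04. Those with the smallest p were Ring1 at 5.91 ± 0.839 FPKM in knockout and 7.12 ± 0.405 FPKM in control ventricles, and Wdr5 at 16.7 ± 0.619 FPKM in knockout and 18.7 ± 1.26 FPKM in control ventricles (SD, n = 3 each; limma adjusted p = 0.299 and 0.348). The 13 genes of cohesin and strand exchange also had 0 calls and a median of -0.04. In 4 of the 13 all knockout libraries lay below all controls and in 0 above, where 10.4% and 11% of all tested genes did. Esco2 was at 5.14 ± 0.312 FPKM in knockout and 5.94 ± 0.00787 FPKM in control ventricles and Smc1a at 17.6 ± 1.33 FPKM in knockout and 20.2 ± 0.762 FPKM in control ventricles (SD, n = 3 each; limma adjusted p = 0.256 and 0.261).

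The genes whose profile over the 6 libraries was closest to that of Meioc were named by the root mean square difference of log2(FPKM + 1), after subtracting each gene's control mean, among 11940 named protein-coding genes. They were Nrsn2 (0.0434), Trpv2 (0.121), Tubb4a (0.126), Cend1 (0.138) and Stac2 (0.150). Nrsn2 stood at 5.56 ± 0.0911 FPKM in knockout and 1.3998 ± 0.182 FPKM in control ventricles, and Trpv2 at 4.06 ± 0.598 FPKM in knockout and 1.01 ± 0.111 FPKM in control ventricles (SD, n = 3 each). Dmc1 ranked 19th by this measure and Rec8 67th. The measure uses the group difference itself, so it picks genes that differ between the groups.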

How the data were processed

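RNA was sequenced from 3 knockout and 3 control samples of E12.5 ventricle, grouped by the sample descriptions. Per the labels' protocols, TRIzol was used for extraction and an unstranded NEBNext Ultra kit for the libraries. Tools named in the submitters' processing notes are featureCounts 1.5.0-p3, HISAT2 2.0.5, fastp and CASAVA, with build mm10. How reads were assigned to genes, and with which annotation, is not stated there. The authors deposited FPKM for 54532 gene IDs and no read counts.

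Symbols, positions and union exon lengths came from GENCODE M21 (54495 IDs matched). Reads were recovered by dividing FPKM times exon length by the most frequent nonzero value of that product in the library, taken as 1 read. Of the values below 30 reads 98.1% to 98.5% were whole to within 0.02, as were all values of the 10 genes. One read in 1 kb was worth 0.0515 to 0.0562 FPKM. Floors cover counting error only. Genes averaging 0.5 FPKM or more were put on the log2(FPKM + 1) scale and fitted by limma 3.58.1 under R 4.3.3 (mean-variance trend, two-sided, genotype only, Benjamini-Hochberg over all tested genes). The fit was tested on simulated data. A median chi-square of at least 1.73 between any 2 libraries, against 0.455 for sampling noise, showed no copied library.

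The 10 genes and all lists were chosen with earlier results of these data known. Named list genes are those called, or the 2 tested with the smallest p; the 5 genes nearest Meioc were added by rule. Neighbouring genes, Chpt1, sex-linked genes and list genes at or near 0 were named after their values were seen. Spo16 was not matched and is not analysed here. Another gene that the naming rule picks, and a ratio to another gene, are not reported here. Alternatives varied the pseudocount, the filter, the scaling, the replicate term and the libraries kept. Python 3.11.15, pandas 2.3.3, numpy 2.4.6, scipy 1.17.1 and matplotlib 3.10.9 made the tables and plots.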

Additional observations from a re-analysis of the deposited data

How the results depend on the processing

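Kdm1a, the targeted gene, kept its call in all 14 alternatives. Meioc and Dmc1 were called in 14 of 14, Ythdc2 in 0 of 14 and Rec8 in 4 of 14. For Rec8 these were TPM, rescaling without haemoglobin and mitochondrial genes, replicate block, and without control replicate 3. No support is read from the calls of Meioc, Dmc1, Ythdc2 and Rec8, because these genes were chosen with this contrast known. The log2 differences of Meioc and Dmc1 depend on the scale. They were 2.18 and 1.90 with a pseudocount of 0.1, and 1.77 and 1.45 with 0.5. After rescaling to TPM they were 1.93 and 1.61. Calls over all genes, 270 higher and 66 lower, became 110 and 12 without the filter on low values. Leaving out 1 library gave 111 to 273 higher and 23 to 108 lower, while TPM gave 369 higher and 40 lower, and rescaling without haemoglobin and mitochondrial genes 395 higher and 49 lower. The count of 1 list gene higher became 0 with a pseudocount of 0.1 or quantile normalization, and 2 (Rbm46 and Rnf17) with TPM or without haemoglobin and mitochondrial genes. Without the filter it was 1, but the gene was Boll and not Rbm46 (adjusted p = 0.128). Leaving out 1 library gave 0 to 1 higher and 0 to 1 lower, the last being Gtsf1, seen without control replicate 2. The causes were not tested. With the replicate block 0 list genes were called higher and 220 genes in all, against 270. The deviations of same-numbered libraries correlated at -0.0021, 0.140 and 0.164, so the numbers are not taken to pair the samples. With 3 reads as the floor, Smc1b, Sycp1 and Hormad1 are too thinly covered to compare.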

Other observations

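Below the level tested, several further germline genes had reads mainly in the knockout; they were chosen after their values were seen and have no test in the fit above. Boll, a gene of the DAZ family of germ cell RNA-binding proteins, had 61, 39 and 59 reads in knockout libraries, against 2, 3 and 0 reads in control libraries (0.572 to 0.961 FPKM against at most 0.0480 FPKM). In the fit without a filter on low values the gene rose (limma adjusted p = 0.0352). Of the control libraries 2 were under 3 reads, so no ratio is given. Mei4, a gene of meiotic double-strand break formation, had 17, 26 and 15 reads in knockout and 2, 4 and 4 reads in control libraries (limma adjusted p = 0.0991 in that fit). Tex15 had 144 reads over the knockout libraries and 62 over the controls, and Exd1 64 over the knockout libraries and 21 over the controls. Top6bl went the other way, with 11 reads over the knockout and 28 over the control libraries. In the fit without a filter Tex15, Exd1 and Top6bl were not called (limma adjusted p = 0.244, 0.335 and 0.365). Of the 82 listed germline genes with a read in any library 13 had all knockout libraries above all controls and 3 had them below, where 8.51% and 7.05% of all genes with a read did. These counts have no floor, and nothing is read from them, because the lists were chosen with earlier results of these data known. Rnf212 is among the 13 with 1, 2 and 2 reads in knockout and 1, 0 and 0 reads in control libraries.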
